A study of Sordaria macrospora with 8 samples.

Results

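The members described here are the 326 long intervals of the Sordaria macrospora wild-type genome in which no peak of histone H3 acetylated at lysine 56 (H3K56ac) was listed. They were chosen by the positions of the wild-type peaks alone: each one runs from the end of one peak to the start of the next on the same chromosome and is at least 8000 bp long. They are 326 of 7423 intervals between the 7430 peaks of the wild-type list, which is 4.39% of the intervals and 15.6% of the bases between peaks. Their number, length and position therefore follow from the choice and are given as a description without a test.

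The series compared chromatin from mycelium of 2 strains of S. macrospora, a filamentous ascomycete, by immunoprecipitation with an antibody against H3K56ac and sequencing. The wild type, with an intact asf1 gene, was grown for 2 days. The delta-asf1 strain (Δasf1), in which this gene is deleted, was grown for 3 days, since it grows more slowly and was taken at a comparable stage. Both grew at 27°C in liquid complete medium under constant light, and chromatin of both was cross-linked with formaldehyde and cut with micrococcal nuclease. Each strain had 2 immunoprecipitated samples and 2 input samples, but the deposited peak lists give 1 list per strain and no value per sample. The strain and the length of growth cannot be told apart in this design, and no spread between replicates could be calculated, so differences between the lists are reported without a test.

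Lysine 56 lies in the globular core of histone H3, close to where DNA enters and leaves the nucleosome. In Saccharomyces cerevisiae the acetyl group is placed on newly made histone H3 by the acetyltransferase Rtt109, to which the histone chaperone Asf1 presents the histone, and it enters chromatin during replication and where histones are exchanged. Stretches without a peak are places where the immunoprecipitated sample did not exceed the local background enough to be listed, which is not the same as an absence of the acetyl group.

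The 326 long intervals added up to 3.55 Mb, or 9.01% of the 39.4 Mb spanned by the 7 chromosomes. Their median length was 9980 bp, with quartiles at 8712 and 12151.5 bp, whereas the median of all wild-type intervals was 2238 bp. At least 10000 bp were reached by 162 of them, 12000 bp by 87, 15000 bp by 24 and 20000 bp by 4. The limit fell in a continuous range of lengths. The shortest members measured 8001 and 8005 bp, and the longest intervals that were left out measured 7988 and 7987 bp. When wild-type peaks below the lower quartile of −log10 q, the peak caller's significance after correction for multiple testing, were ignored, 870 intervals passed the limit, so the extent of the peak-free space depended strongly on how weak a peak was accepted.

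The Δasf1 list held more such space. Among its 7110 intervals 510 reached 8000 bp, and they covered 14.6% of the genome compared with 9.01% in the wild type. Peaks covered 37.7% of the chromosomes in Δasf1 and 42.2% in the wild type. Each list was taken at its own threshold, and sequencing depth is unknown. The wild type itself had 870 such intervals without its peaks below the lower quartile of −log10 q. The difference between the lists was not tested. The single longest interval was found in the wild type (30725 bp, against 27240 bp in Δasf1).

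**Figure D1:**
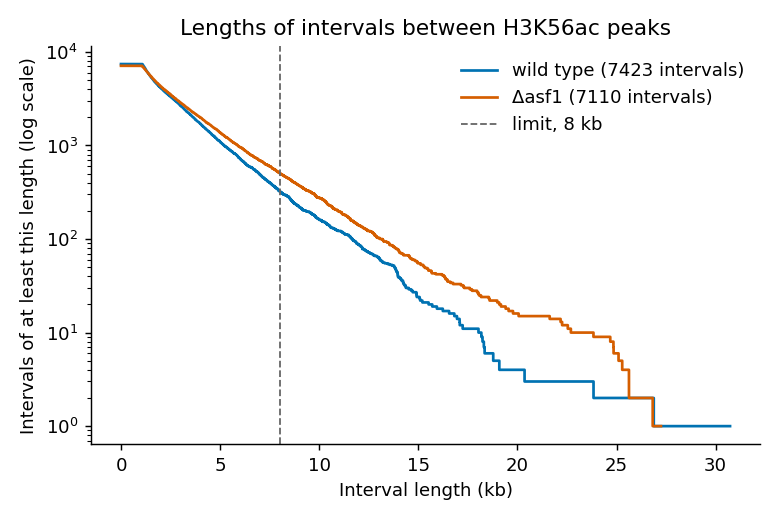
Number of intervals between successive H3K56ac peaks (log scale) that are at least as long as the length on the horizontal axis (kb), for the wild-type and the Δasf1 list, with the 8 kb limit as a dashed line. At the limit the curves stand at 326 and 510 intervals, and the last step of the wild-type curve is the interval of 30725 bp.

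Long intervals occurred on all chromosomes. Chromosome 1 had 80, chromosome 2 had 45, chromosome 3 had 42, chromosome 4 had 40, chromosome 5 had 47, chromosome 6 had 41 and chromosome 7 had 31. Relative to length, chromosome 5 was the richest with 10.4 long intervals per Mb and 11.7% of its bases in them, followed by chromosome 6 with 9.60 per Mb and 10.7%. Chromosome 2 was the poorest with 7.03 per Mb and 7.68%. The median length of the long intervals ranged from 9234.5 bp on chromosome 1 to 11492 bp on chromosome 5.

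Most long intervals stood alone. In 277 of 326 cases both neighbouring intervals were short, and 49 long intervals (15.0%, 95% Wilson interval from 11.6% to 19.3%) were separated from another one by a single peak. These formed 20 pairs and 3 triplets. The share with a long neighbour was 30.7% without wild-type peaks below the lower quartile of −log10 q, and 4.60% with a minimum length of 12000 bp. After a long interval the next one was also long in 26 of 326 cases (7.98%), and after a shorter interval in 300 of 7090 cases (4.23%). The Wilson intervals, from 5.50% to 11.4% and from 3.79% to 4.73%, cover counting error only and treat intervals as independent, which neighbours on a chromosome are not. The triplets were chr7:2821294-2859547, chr4:5054656-5091653 and chr6:434312-473241, which spanned 38254, 36998 and 38930 bp with 1694, 1090 and 5456 bp of wild-type peaks between the long intervals. Δasf1 peaks covered 3.36%, 20.6% and 6.18% of their long intervals.

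The peaks that divided such pairs and triplets were narrow, with a median width of 1028.5 bp for the 26 peaks. The median was 1472.5 bp for all peaks that border a long interval and 1634.5 bp for the whole wild-type list. Of these 26 peaks 14 (53.8%) were overlapped by a Δasf1 peak. Among the 626 peaks that border a long interval on either side, 486 (77.6%) were overlapped, and among the remaining 6804 wild-type peaks 5689 (83.6%). A narrower peak has less room to be overlapped, and these shares were not compared at equal width. The fold enrichment, which is the signal of a peak relative to its background, had medians of 1.24 for the 26 peaks, 1.24 for bordering and 1.25 for the remaining peaks.

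Windows of 200 kb showed where long intervals accumulated. Each long interval was counted in the window that holds its midpoint, and the last window of each of the 7 chromosomes is shorter than 200 kb. Of 201 windows 41 had no midpoint, although 1 of these held bases of a long interval, and 8 had at least 5. The highest count, 7, belonged to the first 200 kb of chromosome 1, and the first windows of chromosomes 6 and 7 had 5 each. Away from the ends, the window from 2000001 to 2200000 on chromosome 5 had 6 and held 76711 bp of long intervals, the largest amount of the 8 windows. The opposite was found on chromosome 7, where no long interval occurred from 722329 to 1714639, a distance of 992 kb. The median distance between successive long intervals was 70.2 kb.

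**Figure D2:**
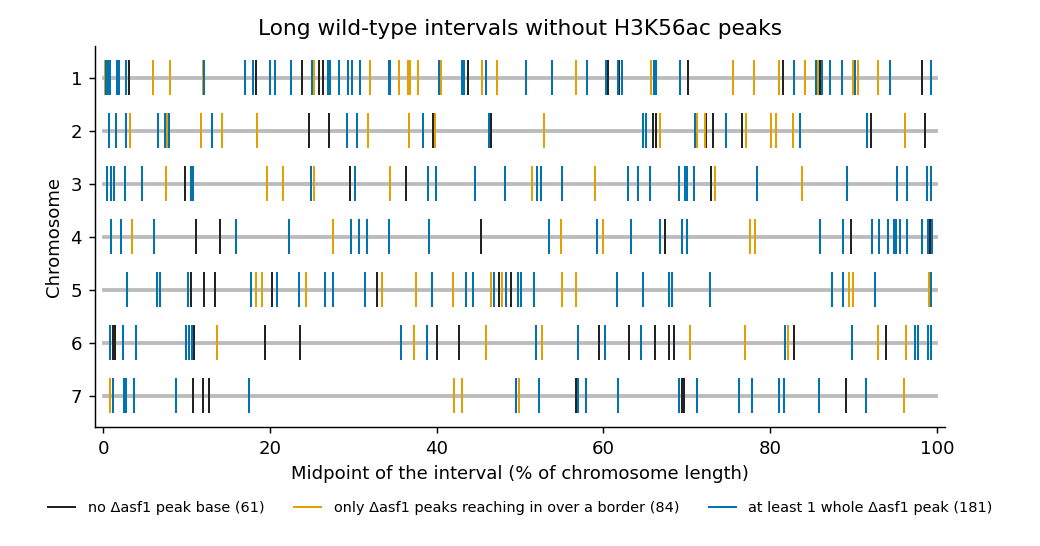
Midpoints of the 326 long wild-type intervals along the 7 chromosomes (percent of chromosome length), each drawn as a vertical line. Colours separate 61 intervals without a Δasf1 peak base, 84 that Δasf1 peaks only reached into over a border, and 181 that held at least 1 whole Δasf1 peak; the empty stretch on chromosome 7 and the dense left ends of chromosomes 1, 6 and 7 are visible.

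Chromosome ends carried more peak-free space than the remainder of the chromosomes. Within 100 kb of an end lay 30 of the 326 long intervals (9.20%, 95% Wilson interval from 6.52% to 12.8%), compared with 196 of all 7423 intervals (2.64%, from 2.30% to 3.03%). The share of long intervals near an end was 4.71% without wild-type peaks below the lower quartile of −log10 q, and 19.5% with a minimum length of 12000 bp. Long intervals made up 27.2% of the bases in these end regions and 8.34% of the bases elsewhere. They were also longer, with a median of 12230.5 bp near the ends and 9828.5 bp elsewhere. In Δasf1 the corresponding shares of bases were 20.7% and 14.3%. Wild-type peaks covered 34.8% of the end regions and Δasf1 peaks 36.2%, while protein-coding genes covered 48.6%, against 58.0% of the genome.

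The ends did not behave alike. Of 14 ends 12 had a long interval within 100 kb, and the same 12 exceeded the share found in the rest of the chromosomes. The right end of chromosome 4 had 4 long intervals and 47.0% of the 100 kb in them, and the left ends of chromosomes 3 and 1 had 43.5% and 42.8%. The left end of chromosome 5 and the right end of chromosome 7 had none. At the right end of chromosome 2, which carries the rRNA genes, a single long interval took 9.02%. A further 10669 bp between the last wild-type peak and this end were not counted, because no peak follows them. Summed over the chromosomes, the first 10% of chromosome length held 45 long intervals and the last 10% held 37, and each of the 8 classes of 10% between them held from 25 to 37.

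**Figure D3:**
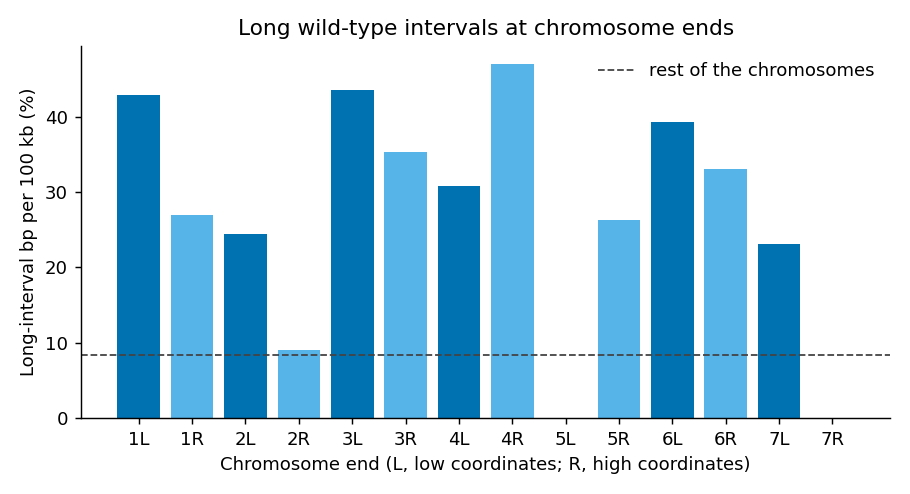
Share of the terminal 100 kb in long wild-type intervals (percent), as 1 bar for each of the 14 chromosome ends (L, low coordinates in dark blue, and R, high coordinates in light blue). Stretches beyond the outermost wild-type peak are not counted. The dashed line is the share in the rest of the chromosomes, 8.34%; bars reach 47.0% at the right end of chromosome 4 and are absent at 5L and 7R.

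Δasf1 peaks covered a smaller share of the long wild-type intervals than of the chromosomes. They covered 430 kb or 12.1% of the long-interval bases, compared with 18.2% of the bases of shorter wild-type intervals, 65.7% of the bases under wild-type peaks and 37.7% of the chromosomes as a whole. The value of 12.1% depended on both thresholds: it was 20.8% without wild-type peaks below their lower quartile of −log10 q, which lets 870 intervals pass, and 7.13% without Δasf1 peaks below theirs. In the 10 kb on either side of the long intervals Δasf1 peaks covered 39.5%. The fill of a single long interval had a median of 9.95%, with quartiles at 0.621% and 18.3%. At least 25% was reached in 45 intervals and 50% in 6, and the highest value was 62.9%.

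The share fell with length. It was 23.9% in wild-type intervals of 1000 to 2000 bp, 17.2% up to 4000 bp, 16.4% up to 6000 bp, 14.2% up to 8000 bp, 12.8% up to 10000 bp and 11.6% both up to 12000 bp and beyond. The values of the long intervals followed on from that of the class just below the limit. In the opposite direction the values were higher, and wild-type peaks covered 19.0% of the bases of the 510 long Δasf1 intervals. By length, this share went from 30.9% in Δasf1 intervals of 1000 to 2000 bp to 21.2% between 6000 and 8000 bp. Above the limit it did not fall steadily, with 19.2% up to 10000 bp, 19.9% up to 12000 bp and 18.2% beyond. Wild-type peaks also cover more of the genome than Δasf1 peaks, and this difference in level was not tested.

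Counted by interval, 181 of 326 (55.5%, 95% Wilson interval from 50.1% to 60.8%) contained at least 1 complete Δasf1 peak, against 9.69% of all wild-type intervals. Without Δasf1 peaks below the lower quartile of −log10 q the share was 27.3%. A longer interval has more room for a complete peak, and the share rose from 39.6% between 6000 and 8000 bp to 46.3%, 53.3% and 74.7% in the 3 length classes above the limit. A single complete peak was found in 130 long intervals, 2 in 36, 3 in 13 and 4 in 2. Another 84 (25.8%) were entered only over a border, by Δasf1 peaks that began or ended outside. The remaining 61 (18.7%, from 14.9% to 23.3%) had no base under a Δasf1 peak, compared with 30.7% of all wild-type intervals. This share also depended on length, with 35.5% in wild-type intervals of 1000 to 2000 bp and 20.8% between 6000 and 8000 bp. Above the limit it was 23.2% up to 10000 bp and 12.6% from 12000 bp. The difference from all intervals is therefore not particular to long intervals. In the reverse comparison 370 of the 510 long Δasf1 intervals (72.5%) held a complete wild-type peak, against 14.7% of all Δasf1 intervals, and 33 (6.47%) had no wild-type peak base, against 21.4% of all Δasf1 intervals. No wild-type peak base was found in 28.3% of Δasf1 intervals of 1000 to 2000 bp and in 9.11% of those of 6000 to 8000 bp.

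Complete peaks accounted for 7.91% of the long-interval bases and peaks reaching in for 4.19%. The latter lie at the borders by definition. Cover by all Δasf1 peaks, complete ones included, was 20.6% in the first 500 bp inside the border and 13.4% in the next 500 bp. From there to 4 kb it was between 10.0% and 11.5%. Directly outside the border, where every base adjoins a wild-type peak by the choice of the intervals, Δasf1 peaks covered 52.8% of the first 500 bp. Of the 249 centres of complete Δasf1 peaks 8 lay within 10% of the interval length from a border, where a complete peak has little room, and each further step of 10% towards the middle held between 57 and 68.

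**Figure D4:**
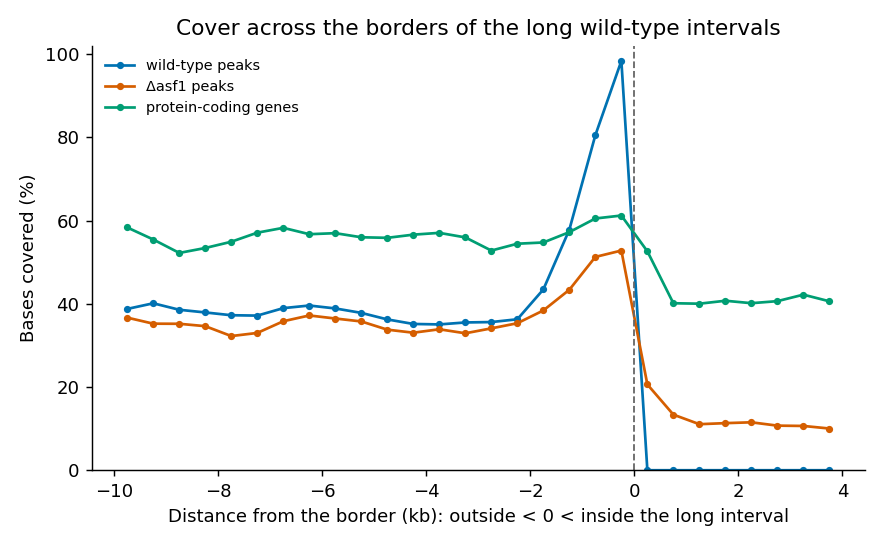
Bases covered (percent, in bins of 500 bp) by wild-type peaks, Δasf1 peaks and protein-coding genes against the distance from the border of the 326 long wild-type intervals (kb, negative outside and positive inside, both borders combined). Wild-type cover is 98.4% just outside and 0 inside by construction, Δasf1 cover falls from 52.8% to 20.6% across the border and gene cover from 61.2% to 52.6% and then to 40.1%.

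The 249 complete Δasf1 peaks in long intervals overlap no wild-type peak by the way they were counted, and a wide peak is less likely to meet this condition. Their median width was 974 bp and their median fold enrichment 1.21, compared with 1661 bp and 1.26 for the 6309 Δasf1 peaks that overlap a wild-type peak. The 559 other Δasf1 peaks without wild-type overlap met the same condition in shorter intervals. They were narrower, with a median of 735 bp, and had a similar median fold of 1.22. The peaks in long intervals made up 30.8% of all 808 Δasf1 peaks without wild-type overlap, and amounted to 7.0 per 100 kb of long intervals against 2.91 per 100 kb of shorter intervals, which have less room. The widest was chr7:148644-153275 with 4632 bp and a fold of 1.21, and the highest fold, 1.42, belonged to a peak of only 307 bp at chr1:3203092-3203398.

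The long intervals were also set against the long Δasf1 intervals, which cover 14.6% of the genome. A reciprocal overlap of at least 50% with a long Δasf1 interval was found for 164 of 326 (50.3%) and for 164 of 510 long Δasf1 intervals (32.2%). No share over all intervals was calculated beside these values, so they do not show whether such overlap is particular to long intervals. A stretch of 8000 bp or more without peaks of either strain remained in 156 long intervals (47.9%), and in 153 of the 510 long Δasf1 intervals (30.0%). In the long wild-type intervals the median longest stretch free of Δasf1 peaks was 7680 bp. The 61 intervals without any Δasf1 base had a median length of 9139 bp and lay in Δasf1 intervals with a median of 14026 bp, which by construction are at least as long as the intervals they contain.

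Protein-coding genes, whose positions were not used to choose the intervals, covered 41.5% of the long-interval bases. They covered 49.7% of the bases of shorter intervals and 71.1% of those under wild-type peaks, and 57.7% of the 10 kb on either side. Individual long intervals varied widely, with a median of 41.4% and quartiles at 24.0% and 59.5%. No protein-coding base was found in 12 of them, and 1, chr3:3365846-3374378, lay entirely inside a gene. Complete genes numbered 587, with a median of 2 and a maximum of 9 per interval, and 68 long intervals held none.

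Where Δasf1 peaks did fill long intervals, they did so mainly inside genes. Δasf1 peaks covered 20.6% of the genic and 6.10% of the other bases, and the genic share was higher on 7 of 7 chromosomes. It ranged from 13.5% on chromosome 6 to 32.1% on chromosome 7, and the share outside genes from 4.28% on chromosome 2 to 9.32% on chromosome 3. Of the 249 complete Δasf1 peaks 181 (72.7%, 95% Wilson interval from 66.8% to 77.8%) had their centre in a protein-coding gene. Shorter wild-type intervals had the same order, with 27.4% of genic and 9.18% of other bases covered and 74.4% of 559 peak centres in genes. Over the whole genome Δasf1 cover also went with gene cover (r = 0.382 in bins of 1000 bp), and wild-type cover less so (r = 0.271). The higher genic share is therefore not particular to long intervals. The gap between genic and other bases was smaller in the reverse comparison: wild-type peaks covered 23.1% of the genic and 16.6% of the other bases of long Δasf1 intervals, and 239 of 549 complete wild-type peaks (43.5%, from 39.4% to 47.7%) were centred in genes.

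Long intervals with and without Δasf1 peaks also had different gene content. Genes covered a median of 50.8% of the 181 intervals with a complete Δasf1 peak (quartiles 32.1% and 65.8%), 30.9% of the 145 without (quartiles 14.5% and 49.4%) and 26.3% of the 61 without any Δasf1 base. The quartile ranges of the first 2 groups overlap, and the same split was not made for shorter intervals. Their median lengths were 10511 and 9338 bp.

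**Figure D5:**
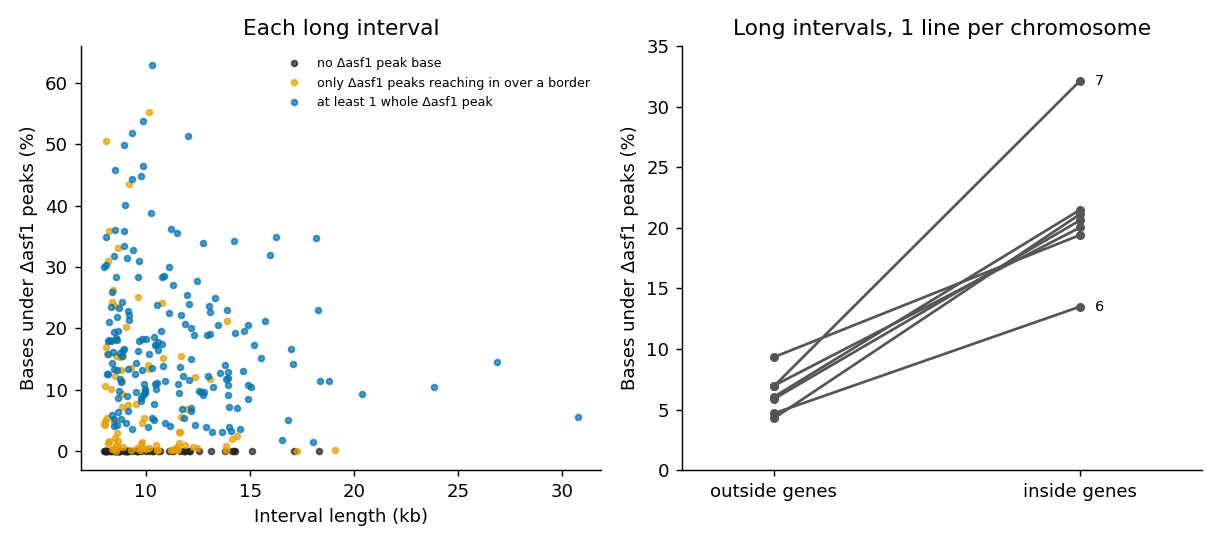
Left, bases under Δasf1 peaks (percent) against length (kb) for each of the 326 long wild-type intervals, coloured by whether a whole Δasf1 peak lay inside, Δasf1 peaks only reached in, or no base was covered; the highest point is 62.9%. Right, the same share for bases outside and inside protein-coding genes, with 1 line per chromosome; all 7 lines rise, and chromosomes 6 (13.5% inside genes) and 7 (32.1%) are marked.

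The genes in long intervals had a lower median length, and more of them lacked an older identifier. With the centre of a gene as the criterion, 744 of 10309 protein-coding genes (7.22%) lay in long intervals. Their median length was 1677 bp, compared with 1953 bp for the 5914 genes centred under wild-type peaks. The gene table gives for most genes a locus tag of an earlier annotation, and 7.01% of all protein-coding genes have none. In long intervals 116 of 744 (15.6%, 95% Wilson interval from 13.2% to 18.4%) had none, in shorter intervals 7.48% and under wild-type peaks 5.65%. Position moved with this value. Within 100 kb of chromosome ends the share was 31.5% of the 111 genes in long intervals and 31.7% of all 398 genes, whereas farther inside it was 12.8% (from 10.4% to 15.6%) in long intervals and 6.02% (from 5.57% to 6.51%) of all genes. A Δasf1 peak overlapped 44.1% of the genes in long intervals, 63.7% of those in shorter intervals and 88.7% of those under wild-type peaks.

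The tRNA genes, which are transcribed by RNA polymerase III, were present in 39 long intervals, with up to 3 in 1 interval. Of 445 tRNA genes 45 (10.1%, 95% Wilson interval from 7.64% to 13.3%) lay in long intervals, which occupy 9.01% of the genome. Shorter intervals held 347 tRNA genes (78.0%) and wild-type peaks only 53 (11.9%), although these peaks cover 42.2% of the chromosomes. Long intervals make up 15.6% of the bases between peaks, which is the closer comparison for the 45 and 347 tRNA genes found there. All 30 rRNA genes were centred under wild-type peaks. The long interval chr2:6301121-6310141 (9021 bp) lay 1.07 kb from the nearest of them, held 3 complete protein-coding genes, and no Δasf1 peak entered it.

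The longest intervals are described singly, with genes named by the locus tags of the gene table, which gives no products, so nothing is said about their functions. The longest of all, chr4:32394-63118 (30725 bp), lay near the left end of chromosome 4 and held 8 genes over 34.7% of its length. The 3 longest genes were SMAC4_13588, SMAC4_13592 and SMAC4_13590, with 2066, 2061 and 1906 bp. Of these, the first and the last have no older tag, and only SMAC4_13592 was touched by a Δasf1 peak, over 747 bp. Δasf1 peaks covered 5.51% of the interval and left 17705 bp in 1 piece without a peak of either strain.

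Farther inside on chromosome 4, chr4:101102-124939 (23838 bp) held 9 genes, and 59.9% of it was genic. Its longest genes were SMAC4_04523 (3558 bp), SMAC4_04527 (3363 bp) and SMAC4_04531 (1901 bp), and 1544 bp of SMAC4_04531 lay under the only complete Δasf1 peak, chr4:121492-123343. The stretch of 19776 bp without Δasf1 peaks in this interval exceeded that of the longest interval.

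Near the right end of chromosome 1, chr1:9225768-9252644 (26877 bp) was filled to 14.5% by 3 complete Δasf1 peaks and 1 reaching in. Its 4 complete genes included SMAC4_09089 (1539 bp), SMAC4_13165 (1488 bp) and SMAC4_09814 (1274 bp). Δasf1 peaks covered 573 bp of the first and 893 bp of the second. By contrast chr1:3761825-3780909 (19085 bp), in the interior of the chromosome, was covered over just 33 bp at its right border. Only 16.4% of it was genic, its 5 genes included SMAC4_13071, SMAC4_13070 and SMAC4_13069 with 1293, 702 and 411 bp, and none of these 3 has an older tag. It formed a pair with the long interval before it, and in this pair of 29480 bp the wild type had only 1311 bp under a peak.

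The longest interval of chromosome 6, chr6:3826070-3846428 (20359 bp), was 64.8% genic and held 6 genes. A Δasf1 peak covered 1179 of the 2412 bp of SMAC4_09029, while SMAC4_09028 (3210 bp) and SMAC4_09032 (2060 bp) were left uncovered. Together the 2 complete Δasf1 peaks filled 9.29% of the interval. On chromosome 2 the longest interval, chr2:1727967-1746270 (18304 bp), had no complete gene, and a single gene, SMAC4_07018, extended into it over 2040 bp. No Δasf1 peak entered this interval, and it was contained in a Δasf1 interval of 19079 bp.

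On chromosome 3 the longest interval was chr3:5090029-5108266 (18238 bp). It was filled to 22.9% by 3 complete Δasf1 peaks although only 15.4% of it was genic. The small genes SMAC4_08411, SMAC4_08413 and SMAC4_08412 (1061, 753 and 351 bp) were covered over 774, 511 and 351 bp. In chr5:2100288-2117523 (17236 bp), the longest of chromosome 5, a Δasf1 peak reached in by 1 bp, and the genes SMAC4_00036, SMAC4_00037 and SMAC4_00035 (2366, 1830 and 1166 bp) were uncovered. It also held 2 tRNA genes. The longest interval of chromosome 7, chr7:351837-367538 (15702 bp), had 3 complete Δasf1 peaks, which touched SMAC4_03864 over 1002 bp and SMAC4_03866 over 490 bp but not SMAC4_03863.

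The most filled intervals were not among the longest. The highest share, 62.9%, was measured at chr7:144476-154753 (10278 bp), nearly all of which lay in genes. Its main gene, SMAC4_07745, is 15829 bp long and extends beyond the interval, with 9515 bp inside, and Δasf1 peaks covered 12773 bp of the whole gene. The second, chr7:2037771-2047907, was filled almost entirely from its left border, by a Δasf1 peak of 6499 bp of which 5603 bp lay inside, over the gene SMAC4_00639. In chr2:168961-178801 a Δasf1 peak of 4516 bp lay wholly within SMAC4_06904 (6036 bp). Next came chr5:4197082-4206426, where SMAC4_08707 overlaps most, and chr4:5054656-5066661, where SMAC4_07858 does. The latter is the first interval of the triplet on chromosome 4 and held 3 complete Δasf1 peaks. Much of this fill came from weak peaks. The lower quartile of −log10 q in the Δasf1 list was 1.9701. At chr7:144476-154753 all but 2 bp of the cover lay under Δasf1 peaks with 1.33, 1.76 and 1.97003. The peak of 6499 bp at chr7:2037771-2047907 had 1.83, and the complete peak at chr5:4197082-4206426 had 1.31. The peak of 4516 bp at chr2:168961-178801 had 2.41, and the 3 complete peaks at chr4:5054656-5066661 had 2.09, 2.29 and 3.12.

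At the other extreme, the longest intervals without any Δasf1 base after that of chromosome 2 were chr2:4675312-4692400, chr6:2529824-2544914, chr2:5889351-5903603 and chr4:4579556-4593778. The genes with the largest overlap were SMAC4_09651 (1776 bp), SMAC4_03521 (2601 bp), SMAC4_09152 (4820 bp) and SMAC4_02056 (2434 bp), each complete and uncovered by peaks of either strain.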

How the data were processed

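H3K56ac immunoprecipitation and input samples of mycelium were available in 2 replicates per strain, grouped by the labels. The submitters' processing notes name fastp, Bowtie2 and MACS2. Versions, settings and the link between inputs and immunoprecipitated samples are not given in the sources used here. The authors deposited peak lists without headers, on an assembly named Sm_v04 in the chromosome names, with start and end, a score, the fold enrichment (a ratio), −log10 p and −log10 q of each peak. The score and the −log10 p columns were not used further, nor was the list of unique wild-type peaks. Each list is called pooled in its name, but the peak names of a list carry only 1 library code. The lowest −log10 q was 1.03. The lists hold no counts, so sequencing depth is unknown.

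Intervals were taken from the end of a peak to the start of the next, with a minimum of 8000 bp. Chromosomes were taken to end at the last gene or peak. Cover was counted per base, with gene positions from RefSeq assembly ASM3387043v1. This is used as the same coordinate system because peak cover and gene cover per 1000 bp correlated with r = 0.271 in the wild type and 0.382 in Δasf1, but at most 0.0365 and 0.0373 when shifted by 5000 bp or more. The points are bins of 1 genome and share neighbours. No coordinates of genes are printed, and peak coordinates are 1-based on the deposited assembly.

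Python 3.11.15 with numpy 2.4.6, pandas 2.3.3, scipy 1.17.1 and matplotlib 3.10.9 was used. Functions were tested on simulated data, and 5 of 5 planted quantities were returned. With 1 list per strain no test was made. Wilson intervals (95%) cover counting error only. The alternatives tried were the minimum length, the peak threshold, the definitions of neighbour, overlap and chromosome end, the stretches at chromosome ends, the gene set, and the list of unique Δasf1 peaks. Members and lists were chosen with earlier results of these data known. Genes are named for the longest interval of each chromosome and the 5 longest in all (the 3 longest complete genes), and for the 5 most filled and the 5 longest unfilled intervals (the gene with most overlap). Lists by gene product could not be matched because the gene table gives no products, except for tRNA and rRNA genes.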

Additional observations from a re-analysis of the deposited data

How the results depend on the processing

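No paired analysis was possible because each strain is represented by a single list, which also means that single replicates could not be left out. Of 46 values recalculated under alternatives set at the start, 18 moved by less than the criterion and 28 moved by more. With a minimum length of 6000 bp there were 725 long intervals, 22.3% had a neighbour, 46.8% held a complete Δasf1 peak and 6.21% lay near an end. With 10000 bp the values were 162 intervals, 30.2% in the outer 10% of a chromosome on either side (25.2% as reported), 64.8% with a complete peak and 13.6% near an end. With 12000 bp they were 87 intervals, 4.60% with a neighbour, 33.3% in the outer 10%, 74.7% with a complete peak and 19.5% near an end. Without wild-type peaks below the lower quartile of −log10 q (1.77) they were 870 intervals, 30.7% with a neighbour, 78.7% with a complete peak, 20.8% of bases under Δasf1 peaks, 49.5% of bases in genes and 4.71% near an end. A neighbour within 10000 bp was found for 27.3% and within 20000 bp for 39.0%. Counting Δasf1 peaks that lay inside by at least 50% of their width gave 62.9%, and by at least 1 bp 81.3%. Without Δasf1 peaks below the lower quartile of −log10 q (1.97), 27.3% held a complete peak and 7.13% of bases were covered. The deposited list of unique Δasf1 peaks covered 8.46% of bases. Within 50 kb of an end lay 5.21% of long intervals, and within 200 kb 14.1%.

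The stretches at chromosome ends (327 intervals) and all gene types (41.6% of bases) moved nothing beyond the criterion. For a share, the criterion was its 95% Wilson interval over the 326 intervals, and for a number of intervals a change of 1.5 times. For the shares of bases this interval is only a fixed yardstick and does not measure their spread. Leaving out the long intervals within 100 kb of an end was added after the data were seen. It left 296 intervals, of which 11.8% had a neighbour and 53.4% held a complete Δasf1 peak, with 11.7% of bases under Δasf1 peaks and 40.4% in genes. The lists hold no coverage, so how much acetylation lies below the threshold of either list is not known, and differences between replicates cannot be seen in them. Positions, neighbours and lengths all rest on the wild-type threshold.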

Other observations

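The longest stretch without any annotated gene was also located on each chromosome. It measured 35657 bp on chromosome 4 and between 14829 and 24193 bp on the others. Long wild-type intervals made up 59.4% of this stretch on chromosome 1, 48.8% on chromosome 2, 43.2% on chromosome 3, 37.0% on chromosome 5 and 27.2% on chromosome 4. On chromosomes 6 and 7 the longest gene-free stretch contained no long interval, and wild-type peaks covered 41.8% and 21.1% of it. The gene-free stretch of chromosome 1 included the whole of chr1:3395762-3410121 (14360 bp), of which Δasf1 peaks covered 340 bp (2.37%).

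Pairs of long intervals differed in how far Δasf1 peaks entered them. On chromosome 6 the pair chr6:46871-69232 had no base under a Δasf1 peak, and the pair chr5:2151076-2176399 had 0.184%. At chr1:146147-167685 and chr7:97488-117056 the shares were 29.7% and 28.0%.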
